A study of Mus musculus with 12 samples.

Results

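The hippocampus (HC) was compared with the anterior cingulate cortex (ACC) in control mice, over the 3 HC control arrays and the 3 ACC control arrays of a series of 12. All 27381 genes of the deposited values table were tested. The mice were C57B16/J of both sexes that had a head fixation at 8 to 12 weeks of age and 7 days of recovery. Control mice were water-deprived, head-fixed on an air-cushioned ball and shown the same visual stimuli as their trained partners, while their water came at times unrelated to what they saw. Each array held RNA pooled from several animals, by the labels 7 per HC pool and 5 per ACC pool, and the sexes of the animals in a single pool were not given. HC and ACC were dissected from the same mice, so HC and ACC pools may share animals. Which mice entered which pool was not given. The other 6 arrays held HC trained and ACC trained pools, and trained mice took 27 ± 2.6 days to reach criterion. Pools 1 and 2 of every group were labelled batch 1 and pool 3 batch 2. The labels call the 3 pools of a group biological replicates, and n = 3 pools per group throughout.

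The HC is an archicortex in which granule neurons of the dentate gyrus project through mossy fibres to the pyramidal neurons of CA3, which in turn project to CA1. The ACC is a layered neocortical area whose upper and deep layers hold different classes of projection neuron. The HC lies beside the lateral ventricle, which contains the choroid plexus and is lined by ependyma, and is capped by white matter. In bulk tissue, a larger number of cells of one type and more RNA per cell of that type cannot be told apart. All values below are log2 expression values from robust multi-array averaging (RMA), and a difference is the HC control mean minus the ACC control mean, so that 1 unit is a doubling. Adjusted p-values are from limma with Benjamini-Hochberg adjustment over all genes, and a gene is called at an adjusted p under 0.05.

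In the control mice, 1897 genes were higher in HC and 1752 were lower, 6.93% and 6.4% of the genes tested, or 13.3% in both directions. Centring each array on its median, which shifted the median of all differences to 0.04, made this split 2590 higher and 1241 lower. Without HC control pool 2, 1206 genes were called higher. The median difference was 0.48 over the genes called higher and −0.46 over those called lower, against −0.01 over all genes. Large differences were mostly on the HC side. A difference of at least 1 was found for 192 genes higher in HC and 127 lower, and one of at least 2 for 27 higher and 3 lower. The HC pools did not overlap the ACC pools for 32% of all genes, 15.9% with HC higher and 16.1% with HC lower.

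Arrays of one region correlated at r = 0.9937 to 0.9951 across genes, against 0.9861 to 0.9891 between regions. Odorant and vomeronasal receptor genes, 1365 of them, served as a measure of background, with a median level of 1.42 and a 95th percentile of 2.76. Of these, 12 were called higher and 27 lower. In batch 1 alone, 855 genes were called higher and 778 lower. In the pool pair of batch 2, which that fit did not use, 94.4% of the first set and 89.8% of the second had the same sign, compared with 64.4% same-signed between batches over all genes. Y-linked genes were not balanced between the regions. The mean of *Eif2s3y*, *Kdm5d* and *Uty* was 5.04, 4.17 and 3.96 in the HC control pools, against 3.59, 3.38 and 3.41 in the ACC control pools, and *Xist*, the RNA that silences an X chromosome in females, was 7.11, 8.01 and 8.15 in HC, against 8.45, 8.52 and 8.20 in ACC. None of these 4 genes was called (adjusted p from 0.0675 to 0.325). With a sex index from these genes as a covariate, 1186 of the genes called higher and 1038 of those called lower were called in the same direction.

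The 12 largest differences in each direction are given among called genes with an established symbol, above the receptor background and with pools that did not overlap, small RNA genes and T-cell receptor segments being left out. *Ttr*, the thyroid hormone carrier secreted by the choroid plexus, was 10.82, 10.81 and 10.29 in HC control pools, against 5.39, 5.28 and 5.17 in ACC control pools, a difference of 5.36 (SE 0.22, adjusted p = 4.19e-08). *Kl*, which encodes klotho, was 7.21, 7.17 and 7.11 in HC, against 4.30, 4.17 and 4.24 in ACC. Both sets of pools were far apart, with less than 1 unit of spread within a region. *Npy2r*, a receptor for neuropeptide Y, was 6.49, 6.58 and 6.4 in HC, against 3.17, 3.06 and 3.64 in ACC, a difference of 3.20 (SE 0.15, adjusted p = 9.12e-08). *Shisa6*, an auxiliary subunit of AMPA receptors, was 8.80, 8.57 and 8.52 in HC, against 5.41, 5.58 and 5.71 in ACC. *Ndst4*, an enzyme that sulfates heparan chains, was 5.57, 5.76 and 5.36 in HC and 2.58, 2.48 and 2.93 in ACC, so that only the HC pools were well above the receptor background. *Syna*, *Dsp*, *Clic6*, *Prox1*, *Cabp7*, *C1ql2* and *Slc9a4* completed the 12 largest, with differences from 2.53 to 2.74.

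On the ACC side the differences among such genes were smaller, the T-cell receptor segment *Trbj2-3* (−2.52) being left out by that limit. *Dkkl1*, a secreted protein related to the dickkopf inhibitors of Wnt signalling, was 3.40, 3.97 and 3.80 in HC control pools, against 5.85, 6.15 and 5.61 in ACC control pools, a difference of −2.15 (SE 0.25, adjusted p = 0.000129). *Cckbr*, the main cholecystokinin receptor of the brain, was 6.0, 6.91 and 6.27 in HC, against 8.36, 8.54 and 8.33 in ACC. HC control pool 2 was the highest HC pool for both genes. *Lamp5*, a membrane protein of upper-layer and some inhibitory neurons, was 6.32, 6.92 and 6.47 in HC, against 8.34, 8.45 and 8.18 in ACC. *Exph5*, *Cobl*, *Igsf9b*, *Cbln2*, *Npas4*, *Smim43*, *Cpne5*, *Herc6* and *Sowahb* followed, with differences from −1.88 to −1.44. All 24 genes kept their call under every alternative in which they were tested.

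**Figure D1:**
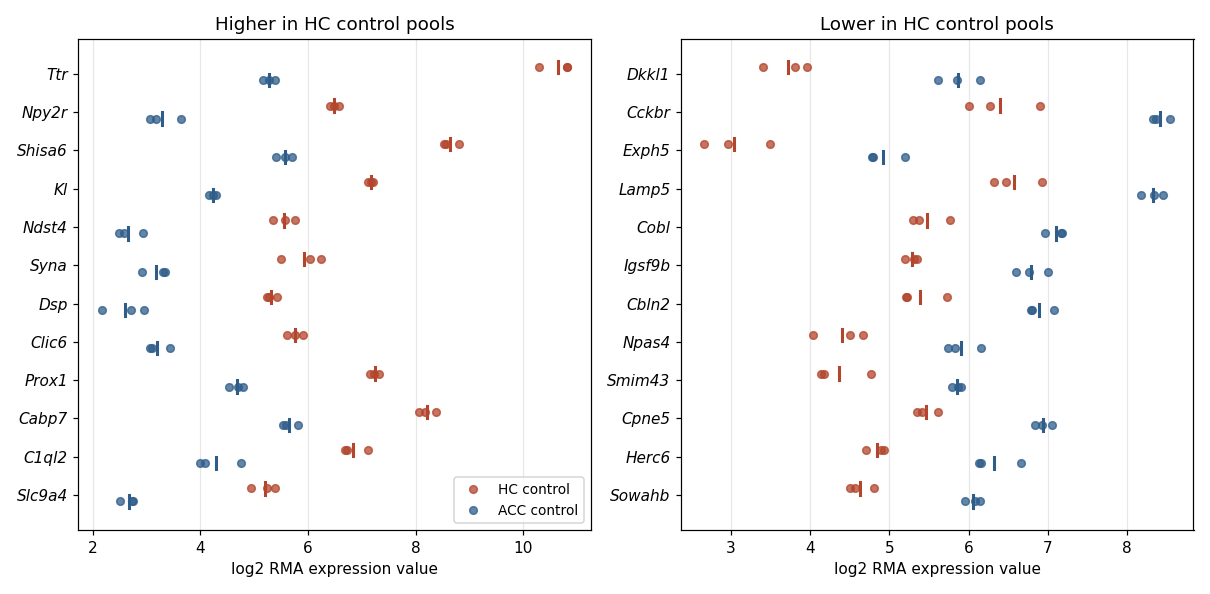
Log2 RMA values of the 12 largest differences in each direction among genes with an established symbol, small RNA genes and T-cell receptor segments left out, with 1 point for each pool and a bar for the mean of 3 pools, HC control above ACC control for each gene. Pools that do not overlap were a condition for choosing the 24 genes. *Ttr* has the widest gap, with HC pools from 10.29 to 10.82 and ACC pools from 5.17 to 5.39.

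Where markers of the hippocampal fields were called, they were mostly higher in HC. The lists were chosen with earlier results of these data known, so they are no independent check of the region labels. Of 16 dentate granule markers, 10 were higher in HC and 1 was lower, with a median difference of 0.77 (0.74 in the trained pools). *Prox1*, the transcription factor that fixes granule cell identity, was 7.33, 7.15 and 7.23 in HC, against 4.70, 4.53 and 4.79 in ACC. *Lct*, which encodes lactase, was 5.51, 5.14 and 5.07 in HC, against 2.63, 3.12 and 3.04 in ACC. *C1ql2*, an organiser of mossy fibre synapses, was 7.11, 6.72 and 6.69 in HC, against 4.76, 4.0 and 4.10 in ACC. *Dsp* and *Rfx3* differed by 2.71 and 0.98, and *Pdzd2* was the member that was lower (−0.41). Of 10 CA1 markers, 6 were higher and none was lower. *Fibcd1* differed by 2.08, *Spink8* by 2.12 and *Gpr161* by 1.74, with no overlap between regions, whereas *Wfs1* and *Itpka* were not called. Of 10 CA2 markers 4 were higher, among them *Rgs14* (0.79), a suppressor of plasticity in CA2, and *Necab2* (1.13). Of 15 CA3 and hilar markers, 8 were higher and 2 lower. *Calb2*, the calretinin of mossy cells in mice, differed by 1.83 and *Homer3* by 1.49, but *Coch* by −0.74.

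Neocortical layer markers were mixed. Of 17 upper-layer markers, 8 were lower in HC and 3 were higher, with a median of −0.27. *Cux2*, a homeobox gene of upper-layer neurons, was 4.67, 5.05 and 4.88 in HC, against 5.84, 5.89 and 6.07 in ACC. *Mdga1* (1.61) and *Scnn1a* (1.27) were higher in HC. Of 25 deep-layer markers, 7 were lower and 5 higher, with a median of −0.04. *Foxp2*, a forkhead factor of layer 6 neurons, was 3.29, 3.73 and 3.53 in HC, against 5.21, 4.70 and 4.60 in ACC, and *Tbr1* and *Tox* differed by −0.99 and −1.06. *Crym*, a thyroid hormone binding protein, and *Bcl11b*, which also marks granule and CA1 neurons, were higher in HC (0.91 and 0.68). Of 45 transcription factors of the cortex and HC, 12 were higher and 12 lower, with *Zbtb20* (1.38) and *Mef2c* (−1.37) at either side. Of 27 interneuron markers 7 were called, 25.9% against 13.3% of all genes. *Kit* (0.91), *Nos1* (0.92), *Ndnf* and *Adarb2* were higher and *Vip* (−0.93), *Crh* (−0.66) and *Npy* (−0.69) lower. Thalamic and habenular markers gave 6 higher and 4 lower of 19, with *Lhx9* at 1.57 and *Ramp3* at −1.06, and striatal and septal markers 2 higher and 3 lower of 13.

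Choroid plexus and oligodendrocyte markers were mostly higher in HC, and other glial and ventricular lists had fewer calls. Of 18 choroid plexus markers, 16 were higher in HC, with a median of 0.90, and their mean level was 4.48 to 4.59 over the HC pools, against 3.14 to 3.24 over the ACC pools. *Kcnj13*, a potassium channel of that epithelium, was 5.75, 6.28 and 5.86 in HC, against 3.29, 3.71 and 3.61 in ACC. *Otx2* was 3.77, 2.99 and 3.28 in HC, and 2.19, 2.25 and 2.18 in ACC, below the receptor percentile in every ACC pool. Of 16 ependymal markers 5 were higher, led by *Tmem212* (1.21) and *Ak7* (0.93), but 2 without HC control pool 1 or ACC control pool 3 and 3 without HC control pool 3 or ACC control pool 2. Of 18 oligodendrocyte and myelin markers, 17 were higher, with a median of 0.75 and a mean level of 7.13 to 7.18 over the HC pools, against 6.08 to 6.86 over the ACC pools. *Cnp*, a myelin enzyme, was 7.42, 7.26 and 7.32 in HC, against 6.86, 6.49 and 6.44 in ACC. *Ermn* had the widest ACC spread of these, 7.61, 7.82 and 7.83 in HC against 7.20, 5.77 and 6.33 in ACC. ACC control pool 1 was the ACC pool nearest to HC for both. Of the 18 markers, 11 were called higher without ACC control pool 2 and 10 without ACC control pool 3. Precursor markers gave 5 higher of 14, including *Pdgfra* (0.38), but 2 without ACC control pool 2 or 3 and 3 without HC control pool 1 or 2 or ACC control pool 1. Astrocyte markers gave 11 higher of 22, and no member of either list was lower.

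*Gfap*, the intermediate filament of astrocytes, was 8.04, 7.97 and 8.04 in HC, against 6.29, 6.0 and 6.25 in ACC, and the gap junction gene *Gja1* differed by 0.51. Of 14 microglial markers *Itgam* (0.38) and *Ctss* (0.35) were called, 14.3% against 13.3% of all genes. Of 18 endothelial and pericyte markers none was called by limma, with 4 at an unadjusted p under 0.05 and none further from 0 than *Vtn* (0.34). Meningeal fibroblast markers gave 4 higher and 1 lower of 16. *Dcn*, the proteoglycan decorin, was 6.64, 6.96 and 6.46 in HC, against 3.99, 4.59 and 4.78 in ACC, while *Col1a2* was lower (−0.34). Blood markers gave 3 lower of 7, all at or below the receptor percentile. Neurogenesis markers gave 5 higher and 2 lower of 15, *Neurod1* (0.74) and *Hopx* (0.76) on the one side and *Dcx* (−0.35) and *Cdkn1a* (−0.97) on the other. The part of choroid plexus, glia and meninges in other differences was not tested.

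**Figure D2:**
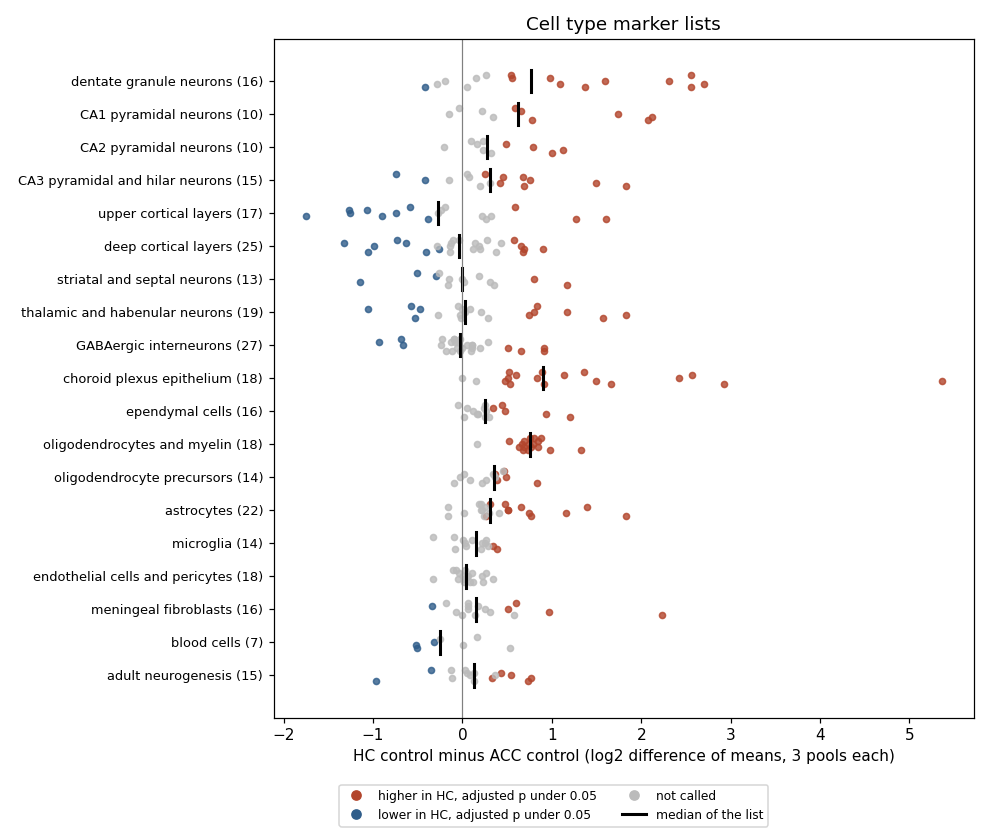
Difference of each marker gene, HC control minus ACC control in log2 units, by cell type list, with the number of genes measured in brackets and a black bar at the list median. Choroid plexus, oligodendrocyte and dentate granule lists have medians of 0.90, 0.75 and 0.77, and upper cortical layers one of −0.27.

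Families of receptors and channels were split between the regions, with different members on each side. Over all genes 6.93% were higher and 6.4% lower. Most members of these lists had a higher region mean above the receptor percentile. Of the 16517 genes with such a level, 1797 were higher and 1465 lower. Of 23 neuropeptide precursors 8 were lower in HC and 2 higher. *Nts*, neurotensin, was 4.29, 3.89 and 3.93 in HC, against 2.60, 2.38 and 2.78 in ACC, whereas *Vip*, *Crh* and *Vgf* were lower (−0.93, −0.66 and −0.60). Of 35 peptide receptors 7 were higher and 7 lower. Beside *Npy2r*, the receptor of thyrotropin-releasing hormone *Trhr* was 4.41, 4.30 and 4.37 in HC, against 3.17, 2.71 and 2.92 in ACC, and *Nmbr*, for neuromedin B, differed by 1.00. Among 34 monoamine and acetylcholine receptors, 7 were higher and 8 lower. *Chrm5*, a muscarinic receptor, was 4.17, 4.38 and 3.83 in HC, against 2.16, 2.32 and 2.40 in ACC. The serotonin receptors *Htr4* and *Htr1a* were higher (1.37 and 1.31), and *Htr2a*, with 6.42, 6.4 and 6.39 in HC, against 7.19, 7.67 and 7.46 in ACC, was lower.

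Of 40 glutamate receptor genes, auxiliary subunits included, 8 were higher and 10 lower. *Gria1*, an AMPA receptor subunit, was 10.04, 9.95 and 9.87 in HC, against 9.0, 9.03 and 9.14 in ACC, while *Grm3* (−0.74) and *Grm8* (−0.99), both metabotropic receptors, were lower. Of 13 GABA receptor genes, 4 were higher and 4 lower. *Gabra5*, whose subunit is known for extrasynaptic receptors in hippocampal pyramidal cells, was 9.81, 9.74 and 9.60 in HC, against 8.62, 8.58 and 8.65 in ACC. *Gabra3* was 7.86, 7.97 and 7.89 in HC, against 8.41, 8.64 and 8.66 in ACC, and *Gabrd* differed by −0.69. Without HC control pool 2 or ACC control pool 1, 2 GABA receptor genes were called higher. Within each of the genes with a value here the regions did not overlap.

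Potassium channels were the family with the largest count of genes lower in HC. Of 56 measured, 25 were lower and 5 higher, with a median of −0.12. *Kcnh5* was 5.86, 5.85 and 5.8 in HC, against 7.37, 7.24 and 7.17 in ACC, and *Kcnh7* was 7.36, 7.63 and 7.44 in HC, against 8.55, 8.53 and 8.52 in ACC. Both belong to the ether-a-go-go family of voltage-gated channels, of which 6 of 8 measured members were lower and none higher. *Kcnv1*, a silent subunit that modifies other channels, differed by −1.25, and *Kcnt1*, a sodium-activated channel, by −1.19. Calcium, sodium and HCN channels gave 7 higher and 9 lower of 32. *Trpc4* (1.17) and *Scn3b* (0.93) were higher, and the sodium channel subunit *Scn4b* (−1.15) and the T-type calcium channel *Cacna1g* (−0.82) were lower. Without HC control pool 2, 5 of this list were called lower.

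Among 44 calcium-binding proteins, 16 were higher and 11 lower, and close paralogues took opposite sides. Of 9 copines, calcium-dependent membrane-binding proteins, 5 were higher and 2 lower. *Cpne7* was 7.77, 7.66 and 7.67 in HC, against 5.38, 5.60 and 5.79 in ACC, and *Cpne5* was 5.41, 5.61 and 5.35 in HC, against 6.93, 7.05 and 6.83 in ACC. The following paralogues were named after their values were seen. *Doc2b*, a calcium sensor of spontaneous and asynchronous transmitter release, was 6.72, 6.67 and 6.60 in HC, against 3.68, 4.53 and 4.31 in ACC, a difference of 2.49 (SE 0.17, adjusted p = 1.76e-06). Its relative *Doc2a* was 4.66, 4.82 and 4.84 in HC, against 6.01, 6.22 and 5.98 in ACC, a difference of −1.30 (SE 0.09, adjusted p = 2.79e-06). The heparan sulfate enzymes *Ndst4* and *Ndst3* differed by 2.90 and −0.57, and the postsynaptic adhesion proteins *Lrrtm1* and *Lrrtm3* by 0.83 and −0.83.

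Guidance and adhesion genes were likewise divided. Of 53 axon guidance genes 19 were higher in HC and 10 lower. *Slit1*, a repellent ligand, was 7.66, 7.44 and 7.50 in HC, against 6.10, 6.15 and 6.26 in ACC, and the semaphorin receptors *Nrp1* (1.32) and *Nrp2* (1.18) were also higher. *Ephb6*, an ephrin receptor without kinase activity, was lower (−1.11). Of 30 cadherins and protocadherins 11 were lower and 5 higher. *Pcdh20* was 6.90, 6.89 and 6.68 in HC, against 4.42, 4.62 and 4.77 in ACC, but *Pcdh7* and *Pcdh10* differed by −1.03 and −0.81. Synaptic adhesion genes and organisers gave 12 higher and 17 lower of 47, with *Tenm3* (1.25) and *Ntng1* (0.96) higher and *Cntn4* (−0.94) and *Cbln2* (−1.50) lower. Heparan sulfate enzymes gave 8 in each direction of 27, including *Gpc4* (1.5) and *Hs3st2* (−1.35), and 4 or 5 were lower without HC control pool 1 or 3 or ACC control pool 1 or 2. Extracellular matrix genes gave 11 higher and 5 lower of 42, with *Lamb1* (0.94) and *Hapln1* (0.69), a link protein of perineuronal nets, higher. Without HC control pool 2 the matrix genes called higher were 7, and without any 1 of the 6 control pools those called lower were 1 to 3.

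**Figure D3:**
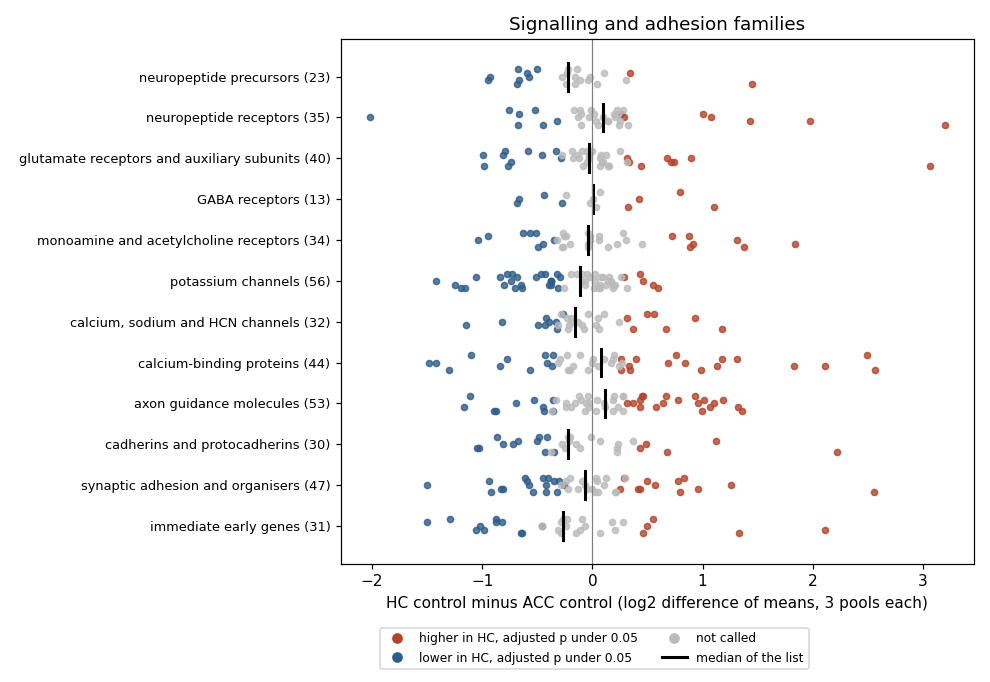
Difference of each gene, HC control minus ACC control in log2 units, for 12 gene families, with the number of genes measured in brackets and a black bar at the family median. Points lie on both sides of 0 in every family, and potassium channels have 25 members lower and 5 higher in HC.

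Growth factor, hormone and Wnt genes followed the same mixed pattern. Of 41 growth factors and receptors 11 were called in each direction, with 7 lower without ACC control pool 3. *Tgfb2* was 6.01, 6.02 and 5.88 in HC, against 4.28, 4.36 and 4.21 in ACC, and *Nrg1*, neuregulin, was 4.55, 4.73 and 4.58 in HC, against 5.48, 5.49 and 5.47 in ACC. The steroid list gave 5 higher and 2 lower of 19. *Nr3c2*, the mineralocorticoid receptor, was 7.30, 7.26 and 7.03 in HC, against 5.47, 5.51 and 5.79 in ACC, a difference of 1.60 (SE 0.10, adjusted p = 1.36e-06). *Nr3c1*, the glucocorticoid receptor, was 7.08, 7.12 and 7.08 in HC, against 7.31, 7.29 and 7.18 in ACC, and was not called (adjusted p = 0.152). *Fkbp5* (1.04) and *Hsd11b1* (0.74), which reactivates glucocorticoids, were higher. Of 25 retinoid and thyroid hormone genes 5 were higher and 4 lower, with *Aldh1a1* (1.33), a retinoic acid synthesising enzyme, and the thyroid hormone receptor *Thrb* (−0.67) among them. Of 49 Wnt and BMP genes 7 were higher, including *Frzb* (1.16), and 7 lower, including *Dkkl1*, with 4 higher without ACC control pool 2. This was 28.6% called, with 44 of the 49 above the receptor percentile.

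Immediate early genes, which are transcribed within minutes of neuronal activity, were lower in HC in 11 of 31 cases and higher in 5, with a median of −0.26. *Npas4* was 4.04, 4.67 and 4.51 in HC, against 5.74, 6.15 and 5.83 in ACC, a difference of −1.50 (SE 0.15, adjusted p = 4.14e-05). *Egr1* was 6.82, 7.07 and 7.00 in HC, against 7.79, 8.16 and 7.98 in ACC. The 5 that ran the other way were led by *Nr4a2* and *Jun*, and were 2 without HC control pool 1 or 3 or ACC control pool 1 and 3 without HC control pool 2 or ACC control pool 3. *Nr4a2*, an orphan nuclear receptor, was 8.13, 8.37 and 8.07 in HC, against 5.98, 6.02 and 6.24 in ACC, a difference of 2.11 (SE 0.13, adjusted p = 1.22e-06). *Jun* was 7.41, 7.62 and 7.48 in HC, against 6.14, 6.17 and 6.22 in ACC. The paralogue *Nr4a1*, named after its values were seen, was 7.74, 7.91 and 7.74 in HC, against 8.5, 8.91 and 8.62 in ACC (−0.88, SE 0.13, adjusted p = 0.000594).

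The 250 bases before the start of *Nr4a2*, *Nr4a1* and *Npas4* are shown because these early genes differed in opposite directions. They are from RefSeq, build GRCm38.p6, at chr2:57124004-57124253 on the minus strand, chr15:101266596-101266845 on the plus strand and chr19:4989972-4990221 on the minus strand. Capitals mark the motif TGACG on either strand (TGACG or CGTCA), a short form of the cAMP response element TGACGTCA, which holds both overlapping.
Nr4a2: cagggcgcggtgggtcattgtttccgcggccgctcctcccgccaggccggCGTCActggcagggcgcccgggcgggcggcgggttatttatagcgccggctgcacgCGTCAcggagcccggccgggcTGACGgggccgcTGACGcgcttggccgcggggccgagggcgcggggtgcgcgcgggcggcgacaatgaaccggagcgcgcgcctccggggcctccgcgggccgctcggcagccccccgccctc
Nr4a1: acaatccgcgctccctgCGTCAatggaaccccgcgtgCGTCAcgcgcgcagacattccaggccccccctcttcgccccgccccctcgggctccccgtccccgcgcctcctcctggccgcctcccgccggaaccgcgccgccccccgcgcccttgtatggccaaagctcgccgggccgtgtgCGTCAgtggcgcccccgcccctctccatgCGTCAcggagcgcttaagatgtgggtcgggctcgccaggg
Npas4: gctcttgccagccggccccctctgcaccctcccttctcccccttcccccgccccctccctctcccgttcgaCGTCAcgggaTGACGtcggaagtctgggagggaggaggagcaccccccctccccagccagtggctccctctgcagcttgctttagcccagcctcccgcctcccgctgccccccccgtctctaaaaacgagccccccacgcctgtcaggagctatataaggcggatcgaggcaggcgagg
The short motif occurred 4 times in *Nr4a2*, 4 times in *Nr4a1* and 2 times in *Npas4*, and a relation to the direction of the difference was not tested. Promoters of other early genes were also read and are not shown. *Jun*, which was higher in HC, held the short motif 0 times and *Fos* 2 times. *Homer1*, with 2 annotated starts, held it 3 times before 1 start and 0 times before the other. Of 32851 promoters of the same length, 17.8% held the short motif at least once. The full element was held by 1.55%, and by none of the 3 promoters shown.

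Respiratory chain (2.94%), cytosolic ribosomal protein (3.12%) and cholesterol genes (5%) were called less often than all genes (13.3%). Of 34 respiratory chain genes only *Ndufa2* was called (0.25), and of 32 cytosolic ribosomal protein genes only *Rps4x* (−0.94), which was 2.33, 2.04 and 2.71 in HC, against 3.57, 2.93 and 3.39 in ACC, close to background. Glycolysis and lactate shuttle genes were above that share, with 3 higher and 2 lower of 24 (20.8%), and the brain glycogen phosphorylase *Pygb* at 0.59. Of 20 cholesterol genes 1 was lower, *Insig1* (−0.34). Of 21 interferon and MHC class I genes *Ifi27* (0.68) was higher and *Herc6* (−1.47) and *Psmb8* (−0.26) were lower. Of 9 broadly expressed genes *Gusb* (0.26) was called. *Ywhaz*, a common reference gene, was 6.26, 6.35 and 6.49 in HC, against 6.39, 6.41 and 6.37 in ACC, with overlapping pools and a difference of −0.02 (SE 0.08, adjusted p = 0.888).

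The microRNA genes that were called were mostly lower in HC. Of 531 named microRNA genes, 73 were lower in HC and 3 were higher, with a median difference of −0.11. In all 14.3% were called, near the 13.3% of all genes. The array reads the RNA of the hairpin locus, which can include the long primary transcript, and does not measure mature microRNAs by themselves. The mature sequences of the microRNA genes with the largest called differences are given from RefSeq, build GRCm38.p6, with the seed, bases 2 to 8, in capitals. Only 3 microRNA genes were called higher in HC.
mmu-miR-568: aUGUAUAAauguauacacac
mmu-miR-450a-5p: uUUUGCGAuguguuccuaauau
mmu-miR-450a-1-3p: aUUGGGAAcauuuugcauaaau
mmu-miR-224-5p: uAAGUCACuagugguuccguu
mmu-miR-224-3p: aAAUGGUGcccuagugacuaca
Those with the largest differences in the other direction were *Mir329*, *Mir493*, *Mir128-1* and *Mir674*.
mmu-miR-329-5p: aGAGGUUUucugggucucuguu
mmu-miR-329-3p: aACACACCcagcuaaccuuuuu
mmu-miR-493-5p: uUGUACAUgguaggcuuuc
mmu-miR-493-3p: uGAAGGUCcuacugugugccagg
mmu-miR-128-1-5p: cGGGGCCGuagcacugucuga
mmu-miR-128-3p: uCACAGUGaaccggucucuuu
mmu-miR-674-5p: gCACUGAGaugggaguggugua
mmu-miR-674-3p: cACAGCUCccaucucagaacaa
No seed was shared among these 13 sequences.

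*Mir568* was 7.30, 7.35 and 7.08 in HC control pools, against 6.07, 5.78 and 6.18 in ACC control pools, a difference of 1.23 (SE 0.14, adjusted p = 0.000117). Its hairpin, chr16:43640655-43640737 on the plus strand, began 6263 bases past the annotated end of *Zbtb20*, which differed by 1.38 and was 7.85, 7.61 and 7.74 in HC, against 6.29, 6.37 and 6.41 in ACC. *Mir450-1* and *Mir224*, both on the X chromosome, differed by 0.44 and 0.29 and lay below the receptor percentile in every control pool. *Mir128-1*, which lies within the gene *R3hdm1* on its strand, was 3.24, 3.02 and 3.42 in HC, against 4.74, 4.74 and 4.44 in ACC. The difference was −1.42 (SE 0.12, adjusted p = 7.89e-06), and *R3hdm1* differed by −0.51 (adjusted p = 0.0012). *Mir128-2* and its host *Arpp21* were named after their values were seen. *Mir128-2* was not called (−0.17, adjusted p = 0.553), while *Arpp21* differed by −0.74 (adjusted p = 9.55e-05). Called microRNA genes outside the interval between *Dlk1* and *Dio3* gave 20 pairs with such a host. The host had the same sign in 17 pairs, was called with that sign in 7 and with the opposite sign in 0. *Mir674* was 4.04, 3.81 and 4.04 in HC, against 5.10, 5.47 and 5.13 in ACC.

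*Mir329* and *Mir493* belong to the imprinted interval between *Dlk1* and *Dio3* on chromosome 12 (chr12:109452485-110281097), where *Dlk1*, *Rtl1* and *Dio3* are known to be expressed from the paternal allele and *Meg3*, *Rian*, *Mirg* and the microRNAs from the maternal allele. The interval was singled out after its values were seen. Of its 53 named microRNA genes, 27 were lower in HC and none was higher, and 51 of 53 differences were below 0, with a median of −0.58. Of the 478 microRNA genes elsewhere, 46 were lower and 3 higher, with a median of −0.09. The share lower was 50.9% in the interval and 9.62% elsewhere, against 6.4% of all genes. Several microRNA genes of the interval lie within *Rian* or *Mirg* on the same strand, so they are not independent measures. The higher region mean passed the receptor percentile for 35 of the 53 and 146 of the 478. *Mir329* was 5.08, 4.33 and 4.40 in HC, against 6.47, 5.93 and 6.06 in ACC, a difference of −1.55 (SE 0.25, adjusted p = 0.00146). *Mir493* was 3.84, 3.70 and 3.95 in HC, against 5.8, 5.34 and 4.92 in ACC. The median microRNA level of the interval was 3.19, 3.14 and 3.34 in the HC pools, against 4.17, 4.11 and 3.88 in the ACC pools, with no overlap.

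The long RNAs of the interval had the same sign. *Meg3* was 8.79, 8.29 and 8.79 in HC, against 9.63, 9.47 and 9.31 in ACC (−0.85, SE 0.15, adjusted p = 0.00273), *Rian* differed by −0.48 (adjusted p = 0.00458) and *Mirg* by −0.41 (adjusted p = 0.0251). Of 17 snoRNA genes of the interval 6 were lower and none was higher. Over all 889 snoRNA genes 42 were lower and 54 higher, and 6.4% of all genes were lower. *Dlk1*, a notch ligand relative, was 4.95, 4.56 and 4.31 in HC, against 3.80, 3.77 and 3.91 in ACC, a difference of 0.78 (SE 0.15, adjusted p = 0.00363). *Rtl1* (−0.34) and *Dio3* (0.35) were not called. In the batch 2 pool pair the median microRNA difference of the interval was −0.28, compared with −0.68 in batch 1. In the trained pools it was −0.35, with 9 microRNA genes lower and none higher.

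**Figure D4:**
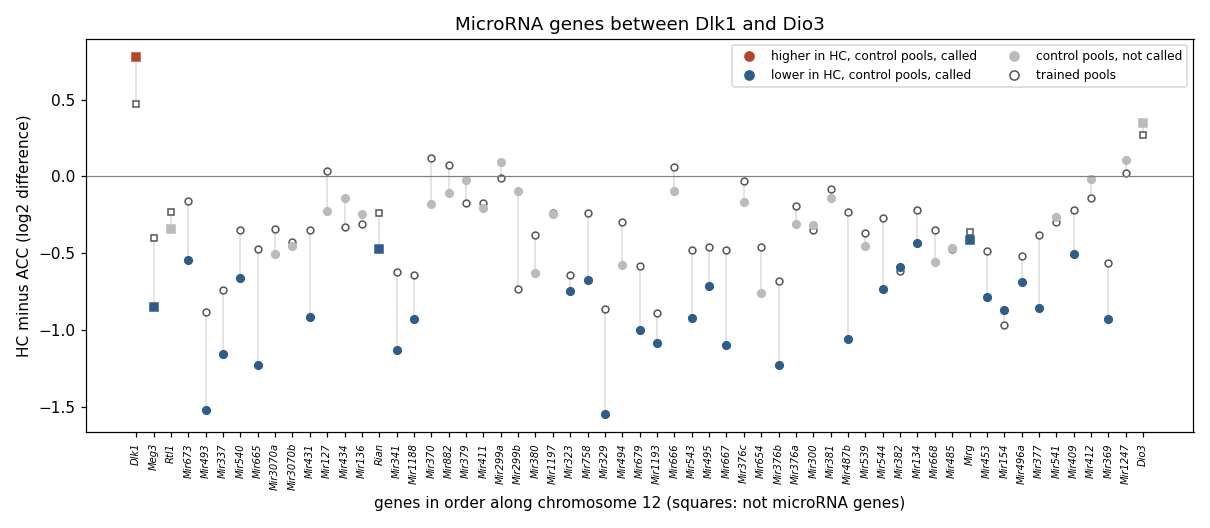
HC minus ACC difference in log2 units for the microRNA genes between *Dlk1* and *Dio3* and for 6 longer genes (squares), in their order along chromosome 12. Filled points are control pools and open points trained pools. 27 microRNA genes are called lower in HC control pools, and *Dlk1* at the left end is called higher.

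The control pools were set against the trained pools, whose arrays are separate. In the trained pools 1308 genes were higher in HC and 1239 lower, 4.78% and 4.53% of the genes tested, or 9.3% in both directions. Of the genes called higher in HC control pools, 998 were also called higher in HC trained pools, 52.6% of the control set and 76.3% of the trained set. For genes lower in HC the number was 824, 47% of the control set and 66.5% of the trained set. The sign was the same in the trained pools for 94% of the genes higher and 86.3% of the genes lower in HC control pools, and 3 genes were called in opposite directions. Of 319 called genes with a difference of at least 1, 314 kept their sign. Their trained difference was, at the median, 0.922 of the control difference. Across all genes the differences correlated at r = 0.705, genes not being independent replicates.

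A direct test of whether the region difference itself differed between control and trained pools called 0 genes (0%) by limma, with a smallest adjusted p of 0.107 and 2427 genes at an unadjusted p under 0.05. *H2ac6*, a histone gene, had the smallest p among established symbols. It was 2.73, 2.21 and 2.35 in HC control pools, against 1.89, 1.33 and 1.41 in ACC control pools, and differed by 0.88 in control and −0.54 in trained pools. *Krt7*, a keratin, differed by −0.78 in control and 0.03 in trained pools, and *Lce3d* by −0.81 and 0.55. *H2ac6* lay below the receptor percentile in every control pool, and *Krt7* was 2.29, 2.05 and 2.08 in HC control pools, against 2.85, 2.99 and 2.91 in ACC control pools, close to it.

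**Figure D5:**
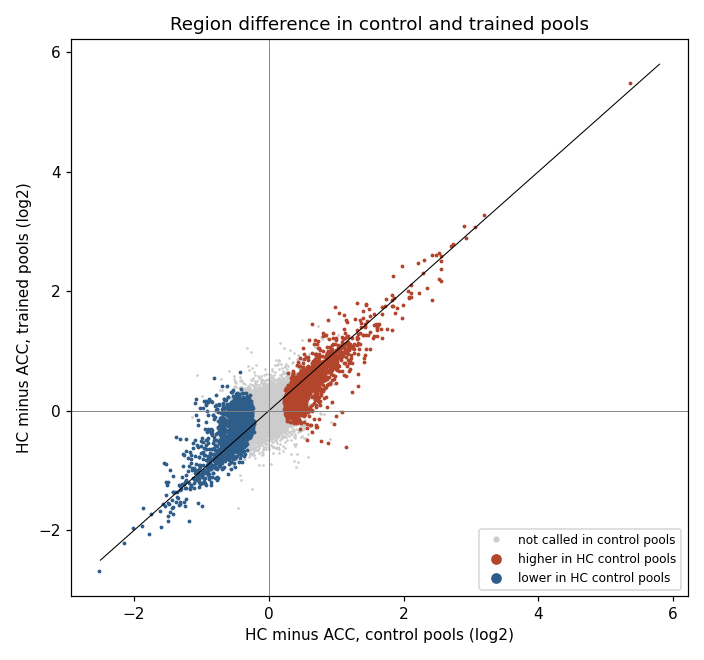
HC minus ACC difference in log2 units for each of the 27381 genes, control pools on the horizontal and trained pools on the vertical axis, with the line of equality. Genes called in control pools are coloured by direction, and 94% of those higher and 86.3% of those lower in HC keep their sign in trained pools.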

How the data were processed

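RNA pooled within region and training group was hybridised to Affymetrix Mouse Gene 2.0 ST arrays, 3 per group. The deposited values are log2 expression values that the authors made by RMA (affy 1.62.0, R 3.6.0) over custom gene-level probe sets, 1 per Entrez gene, which leaves out probes that match several genes. RMA compresses low values and forces the arrays to 1 distribution, so only relative levels can be compared, and levels of different genes cannot. The receptor percentile is therefore only a rough guide to whether a gene lies near background. Of 27381 genes, 26794 had 1 symbol in the platform annotation. The other 587 were tested and are not named. Gene lists (45) held 1115 symbols, 1047 measured genes with a platform symbol, and 62 symbols were not used here.

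With limma (R and limma versions 4.3.3 and 3.58.1), group means were fitted to all 12 arrays, without covariates, and HC control was contrasted with ACC control. p-values were adjusted over all genes by Benjamini-Hochberg. The fit was tested on simulated data. The precision is limited by the 3 arrays per group, and p-values measure the spread between pools, not animals. Members and lists were chosen with earlier results of these data known. Named genes were the 12 largest called differences in each direction with pools that did not overlap and a level above the 95th percentile of odorant and vomeronasal receptor genes (established symbols only, without clone or predicted names, sensory receptors, small RNA genes and immunoglobulin or T-cell receptor segments), the 4 smallest p-values of each list, the 4 largest called microRNA genes in each direction, sex-linked genes, *Ywhaz*, and the 3 smallest p-values with an established symbol for control against trained. *Pdzd2*, *Wfs1*, *Itpka*, *Coch*, *Scnn1a*, *Bcl11b*, *Ndnf*, *Adarb2*, *Npy*, *Otx2*, *Ermn*, *Dcx*, *Cdkn1a*, *Htr2a*, *Ephb6*, *Nr3c1* and *R3hdm1* fall outside this rule and were named after their values were seen, as were the genes so marked in the text. Alternatives were batch or pool number as a term, control arrays or batch 1 alone, other normalization, variance models, weights and filters, and each control array left out. A sex covariate, protein-coding genes alone and each trained array left out were added after seeing the data.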

Additional observations from a re-analysis of the deposited data

Results flagged for a closer look

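In control and trained pools alike, HC and ACC did not overlap, but in opposite directions, for 2 of the named genes. *H2ac6* was higher in HC control than in ACC control pools (0.88, adjusted p = 0.00365) and lower in HC trained than in ACC trained pools (−0.54, adjusted p = 0.0634), a difference between control and trained of 1.42 (SE 0.23, limma adjusted p = 0.17). *Lce3d* was lower in HC control pools (−0.81, adjusted p = 0.00521) and higher in HC trained pools (0.55, adjusted p = 0.0538), a difference of −1.36 (SE 0.23, limma adjusted p = 0.17). Neither difference passed the adjustment over all genes.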

How the results depend on the processing

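Counts of genes called higher and lower stayed within 1.5 times of 1897 and 1752 except with batch 1 alone (855 and 778) and with a minimum difference of 1 (192 and 127), which use fewer arrays or ask for more by construction, and, for genes higher, without HC control pool 2 (1206), whose cause was not tested. Leaving out 1 control array gave 1206 to 1556 genes higher and 1175 to 1401 lower, and leaving out 1 trained array 1773 to 1892 higher and 1636 to 1743 lower. With the replicate block (pool number) the counts were 1548 and 1388, with batch as a term 1589 and 1394, and with the sex index 1274 and 1198. Same-numbered HC and ACC control pools did not deviate together (r = −0.012, −0.047 and −0.24, against −0.079 to 0.134 for other pairs), and no pool correlated best with its own number, so the numbers were not taken as pairs. Over 8 settings of samples, terms, normalization and variance, 752 genes higher and 626 lower kept their call in each. The test of control against trained differences called 0 genes in each alternative run (control arrays alone cannot give it), and 772 genes were higher in both when control and trained arrays were fitted apart. Of 165 named genes that were called, 137 kept their call in each of the 17 alternatives in which they were tested, 28 lost it at least once and none changed sign. Uncalled genes that changed sign were *Xist* (0.20 with the sex index) and *Ywhaz* (0.030 with median centring and 0.033 without HC control pool 1, and between −0.086 and 0.033 with 1 control array left out). List counts of 4 or fewer moved by at most 2 with 1 control array left out. Between *Dlk1* and *Dio3*, 20 to 29 microRNA genes were lower in HC with all 53 tested. No blood marker passed the filter at the median level, which gives that list no value there. Genes near the receptor background have compressed differences, which limits what can be read from *Mir224*, *Mir450-1*, *Lce3d* and *H2ac6*.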

Other observations

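Joining segments of the T-cell receptor beta locus, which encode part of the antigen receptor of T cells, included one of the largest differences on the ACC side. *Trbj2-3* was 2.73, 3.15 and 3.21 in HC control pools, against 6.19, 5.23 and 5.22 in ACC control pools, a difference of −2.52 (SE 0.25, limma adjusted p = 2.73e-05), and in the trained pools the difference was −2.67. *Trbj2-6*, annotated as a pseudogene segment, and *Trbj2-7* differed by −1.05 and −1.0 and had the same sign in trained pools (−1.09 and −1.59). *Trbj1-2*, *Trbj1-6* and *Trbj2-5* were also called lower in HC control pools (−0.499, −0.375 and −0.589). In trained pools these 3 differed by −0.04, −0.08 and −0.23 and were not called. The remaining joining segments measured at this locus were not called in control pools. The T-cell gene *Cd3e* was 1.51, 1.57 and 1.75 in HC control pools, against 2.09, 2.16 and 2.09 in ACC control pools, below the receptor percentile in each. These segments were chosen after their values were seen.

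RNA classes are given beside the 13.3% called over all genes, and a difference between classes was not tested. Of 3240 lncRNA genes 47 were higher and 226 lower in HC control pools, 8.43% in all, with a median of −0.09. Of 18920 protein-coding genes 1738 were higher and 1285 lower, 16% in all. Of 889 snoRNA genes 54 were higher and 42 lower in HC control pools, 10.8% in all, and 83 were higher and 9 lower in HC trained pools. The median lncRNA level was 2.19, 2.20 and 2.23 in HC control pools, against 2.29, 2.32 and 2.32 in ACC control pools, and in the trained pools the median lncRNA difference was −0.03.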
